A study of Homo sapiens with 4 samples.

Results

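HK2, PGAM1, PGAM4, LDHA and BNIP3 are 5 of 14884 genes named on the arrays of this series: a hexokinase, a pair of near-identical phosphoglycerate mutases, a lactate dehydrogenase subunit and a mitophagy receptor. Their probe sets were found by gene symbol in the platform annotation, which gave 1 probe set to each of the 5, and all 5 were bright enough to be tested among 10696 genes. The genes were selected on the lower array values that earlier results of these same data showed after BRPF3 siRNA, so their differences between the siRNAs are given as a description, without a test.

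Glycolysis splits glucose into pyruvate in the cytosol and yields ATP without oxygen. Hexokinases trap glucose in the cell as glucose phosphate, and HK2 is the inducible isozyme, docked to the outer mitochondrial membrane and abundant in many tumours. Phosphoglycerate mutase moves the phosphate group of phosphoglycerate late in the pathway. PGAM1 is its widely expressed form, and PGAM4 is an intronless retrocopy of PGAM1 known from testis. LDHA reduces pyruvate to lactate, which regenerates the NAD+ that glycolysis uses. BNIP3, a BH3-only protein of the outer mitochondrial membrane, recruits the autophagy machinery to mitochondria. HK2, LDHA and BNIP3 are textbook targets of the hypoxia-inducible factor HIF.

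The cells were U2OS, a human osteosarcoma line. One group received siRNA against BRPF3, a scaffold protein of histone acetyltransferase complexes, and the other a scramble control siRNA, both at 50 nM with Lipofectamine RNAiMAX for 48 hours in medium with serum. Each group held 2 arrays, described as biological replicates. Whether the cultures were separate is not stated in the sources used here, and p-values reflect only the spread among the 4 arrays, which may be technical. The number of arrays limits the precision. BRPF3 itself was not analysed here, so the depletion was not checked on these arrays, and no second siRNA against BRPF3 was analysed here.

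The mesenchymal genes VIM (10.35 to 10.52 on the log2 scale over the 4 arrays) and FN1 (10.68 to 10.75) were bright, RUNX2, the osteoblast regulator, lay at 6.31 to 6.56, and TWIST1 was under the brightness limit of 4.59. Of 10 listed mesenchymal genes these 4 were named by the annotation. Their mean log2 value was 7.74 and 7.73 after BRPF3 siRNA and 7.64 and 7.62 after control siRNA. Of 9 named epithelial markers 6 passed the brightness limit, among them KRT18 (9.86 to 10.43) and EPCAM (7.90 to 8.22). The mean log2 value of the 9 was 5.94 and 5.87 after BRPF3 siRNA and 6.02 and 5.94 after control siRNA. The corresponding means were 5.36 and 5.43 after BRPF3 siRNA against 5.60 and 5.48 after control siRNA for 5 leukocyte markers, and 4.79 and 4.78 against 4.94 and 4.91 for 5 endothelial markers. Of the 5 leukocyte markers 3 passed the limit, CD68 (8.38 to 8.73), LAPTM5 (5.25 to 6.38) and SPI1 (5.56 to 5.69), while LYZ and CD14 did not. Of the 5 endothelial markers ERG (6.64 to 6.86) and CLDN5 (5.51 to 5.69) passed, while PECAM1, VWF and KDR did not. KRT18 (-0.49 ± 0.09) among the epithelial and LAPTM5 (-0.88 ± 0.13) among the leukocyte markers were called lower after BRPF3 siRNA by limma. The part of other cells in the differences below was not tested.

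The stretches upstream of the genes are shown because HIF binds the core ACGTG, and because the PGAM4 stretch differs from the other 3 in composition. All 5 genes had at least 1 window of 250 bases before to 50 bases after a transcript start in RefSeq (GRCh38.p14). The 250 bases before the start follow, 5′ to 3′ on the strand of the gene, with ACGTG or its reverse complement in capitals. CACGTG, the E-box bound by MYC and USF factors, reads the same on both strands and holds 2 overlapping ACGTG matches.
HK2 (chr2:74833877-74834126, plus strand): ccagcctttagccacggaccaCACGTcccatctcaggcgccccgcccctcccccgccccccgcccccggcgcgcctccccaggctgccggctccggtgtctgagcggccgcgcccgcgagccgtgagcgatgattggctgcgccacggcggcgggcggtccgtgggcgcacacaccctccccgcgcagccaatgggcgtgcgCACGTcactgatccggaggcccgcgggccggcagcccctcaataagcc
LDHA (chr11:18394313-18394562, plus strand): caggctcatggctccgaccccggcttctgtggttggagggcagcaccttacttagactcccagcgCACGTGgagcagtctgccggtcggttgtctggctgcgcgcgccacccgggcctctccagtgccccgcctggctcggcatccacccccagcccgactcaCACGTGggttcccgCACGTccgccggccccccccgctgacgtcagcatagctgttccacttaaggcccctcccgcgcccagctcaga
BNIP3 (chr10:131981924-131982173, minus strand): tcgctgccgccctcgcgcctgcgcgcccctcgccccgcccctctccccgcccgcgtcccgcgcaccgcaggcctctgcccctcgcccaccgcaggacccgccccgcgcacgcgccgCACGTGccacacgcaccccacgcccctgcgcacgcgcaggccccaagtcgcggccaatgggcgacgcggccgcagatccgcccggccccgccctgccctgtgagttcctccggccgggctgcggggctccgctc
PGAM4 (chrX:77969639-77969888, minus strand): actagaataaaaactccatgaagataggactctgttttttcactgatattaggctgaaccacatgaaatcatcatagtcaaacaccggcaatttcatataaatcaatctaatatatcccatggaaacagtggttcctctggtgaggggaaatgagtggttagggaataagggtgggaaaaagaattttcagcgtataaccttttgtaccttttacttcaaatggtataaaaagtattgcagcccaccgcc

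HK2 and LDHA have 2 windows each, at different transcript starts, and the outer one is shown. In the HK2 stretch shown the capitals begin 229 and 48 bases before the start. The second HK2 window (chr2:74834920-74835169 for its 250 upstream bases) holds 2 E-boxes, which begin 194 and 149 bases before its start, and the second LDHA window holds no ACGTG. In the LDHA stretch shown an E-box begins 185 and another 87 bases before the start, and a further ACGTG match begins 73 bases before it. BNIP3 holds 1 E-box, which begins 134 bases before the start. The PGAM4 window held neither ACGTG nor GCGTG, the other form of the HIF core, and had 41.3% G and C, against 74.3% for HK2 and 80.7% for BNIP3. The 1 PGAM1 window in the RefSeq table, at a start inside the gene, also held neither core and had 53.3% G and C. GCGTG on either strand, which is not in capitals above, was present in the windows of the other 3 genes. The BNIP3 window held 4 matches, the outer HK2 window 1 and the second HK2 window 2. Each LDHA window held 1, which in the outer window lay outside the upstream stretch shown.

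ACGTG on either strand was found in a window of 3 of the 5 genes, of 6 of 10 other tested glycolytic genes and of 11 of 19 tested HIF targets outside glycolysis with a window. Among the 8253 tested genes with a window the share was 31.2%. Genes with more windows have more places for a match. Counted by window, ACGTG was in 4 of 7 windows of the 5 genes and 6 of 17 of the other glycolytic genes. It was in 14 of 25 windows of the HIF targets. Of 11744 windows of tested genes 24.7% held ACGTG, 47.6% held GCGTG and 9.2% held CACGTG. In the windows of tested genes with at least 70% G and C the ACGTG share was 23.3%. A match is a string of letters and not evidence of binding, and its absence holds for these windows alone.

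All 5 genes had lower values on both BRPF3 siRNA arrays than on both control siRNA arrays, as did 35.9% of the tested genes. Values are RMA log2 values, on which a step of 1 is a factor of 2, and differences are BRPF3 siRNA minus control siRNA ± the moderated SE of limma, with n = 2 arrays in each group. Because the genes were chosen for this difference, its direction carries no weight of its own.

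PGAM1 showed the largest of the 5 differences. Its values were 6.76 and 6.88 after BRPF3 siRNA and 8.14 and 8.30 after control siRNA, so the groups were 1.26 apart at their nearest arrays, while arrays of 1 group differed by 0.12 and 0.17. The difference was -1.40 ± 0.10, which leaves 37.8% of the control level, and it ranked 3rd lowest among the 10696 tested genes. On the same scale PGAM4 ranked 21, HK2 68, BNIP3 1068 and LDHA 1080. The genes were chosen on this difference, so the ranks are a description.

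PGAM4 had 6.59 and 6.40 after BRPF3 siRNA and 7.55 and 7.77 after control siRNA, again without overlap. The difference of -1.16 ± 0.12 corresponds to 44.6% of the control level. Transcripts of PGAM1 can hybridise to a PGAM4 probe set and the reverse, and how much of either value each gene contributes is uncertain.

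A further limit concerns the probe set named for PGAM1. Neighbouring probe set numbers mostly belong to genes of the same chromosome. For HK2, PGAM4, LDHA and BNIP3, all 8 nearest named probe sets by number belong to genes of the gene's own chromosome in GRCh38.p14. The number of the PGAM1 probe set stands between those of GLT8D2 and CKAP4, and all 8 nearest belong to chromosome 12, while the PGAM1 gene lies on chromosome 10. Of 15310 probe sets whose 8 neighbours share 1 chromosome, 33 (0.216%) are named for a gene of another. Which locus the probes were designed on is not given in the sources used here, and the name follows the annotation.

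HK2 had 6.98 and 7.28 after BRPF3 siRNA and 8.09 and 7.94 after control siRNA. The BRPF3 siRNA arrays lay 0.29 apart, the widest gap within a group among the 5 genes, and still 0.66 below the nearer control array. The difference of -0.88 ± 0.12 left 54.2% of the control level.

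LDHA and BNIP3 differed less, and on arrays that lay close together. LDHA had 7.11 and 7.05 after BRPF3 siRNA and 7.43 and 7.47 after control siRNA, a difference of -0.37 ± 0.08 or 77.4% of the control level. BNIP3 had 8.25 and 8.21 after BRPF3 siRNA and 8.57 and 8.63 after control siRNA, a difference of -0.37 ± 0.08 or 77.3%. Within a group the arrays of these genes were at most 0.07 apart, against gaps of 0.31 and 0.32 between the groups.

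**Figure D1:**
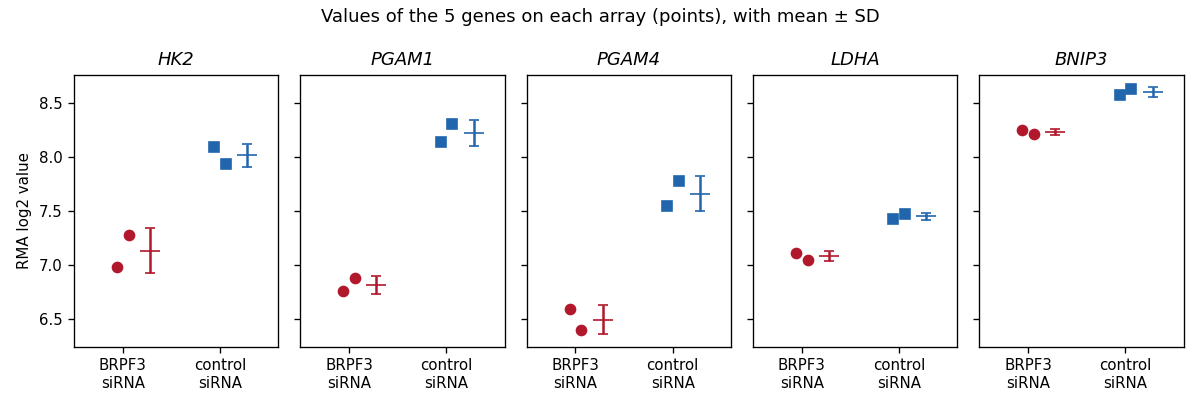
RMA log2 values (vertical axis) of the 5 genes on each array, with 2 BRPF3 siRNA arrays (red circles) left of 2 control siRNA arrays (blue squares) and the mean ± SD beside the points. In each panel both BRPF3 siRNA arrays lie below both control arrays, by 1.26 for PGAM1 and by 0.31 for LDHA at the nearest pair.

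In the limma fit with Benjamini-Hochberg adjustment over all tested genes 5 of the 5 genes were on the lower side of an adjusted p of 0.05, a count that the choice of the genes fixed and that tests nothing about them. Over all 10696 genes 9.44% were called lower and 6.32% higher, 15.8% together, and 63.2% had groups that did not overlap. Of the 1686 calls 676 were higher and 1010 lower, and after quantile normalization 764 were higher and 718 lower. Without moderation, and without either control array, none of the 5 calls passed. The whole table had 1 call without moderation, and 2446 and 2477 genes had an unadjusted p under 0.05 without control siRNA replicate 1 and 2. The calls of LDHA and BNIP3 also ended without BRPF3 siRNA replicate 1, without replicate 2 and without the brightness filter, and that of BNIP3 ended after quantile and cyclic loess normalization.

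Across the 4 arrays the profiles of LDHA and BNIP3, each centred on its own mean, were 0.019 apart (Euclidean distance in log2 units). PGAM1 and PGAM4 were 0.33 apart, and HK2 lay 0.52 to 0.59 from each of the other 4 genes. Outside the 5 genes, the nearest profiles to PGAM1 were those of RASSF3 (distance 0.078) and SH3PXD2A-AS1 (0.12), and those nearest to PGAM4 were ARHGAP12 (0.16) and VPS41 (0.17). L3MBTL3 (0.12) and MTX3 (0.13) were nearest to HK2. HDAC2 and ETV6 were nearest to both LDHA (0.013 each) and BNIP3 (0.0082 and 0.0073). Profiles like those of LDHA and BNIP3 were common, with 1457 and 1489 tested genes within a distance of 0.2, against 22 for HK2, 5 for PGAM4 and 4 for PGAM1. With 4 arrays this likeness mostly restates the size of the difference between the groups.

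Beyond PGAM1, PGAM4, HK2 and LDHA, 10 glycolytic genes were tested, and 0 of them were called lower and 1 higher (limma). With or without moderation by limma none was called lower, while 3 and 4 of the 10 had an unadjusted p under 0.05 in either direction. Over all 10696 tested genes 3706 with moderation and 2469 without it had such a p-value. The 10 had a median difference of -0.17, against -0.03 over all tested genes, and 7 of the 10 differences were below 0, against 55.1% of all tested genes. Of 36 listed glycolytic genes and regulators 18 were named by the annotation and 14 passed the brightness limit. HK3, PGK2, LDHAL6A and LDHAL6B did not pass it. Phosphofructokinases, aldolases, enolases and pyruvate kinases were not analysed here.

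Among hexokinases, HK1, the constitutive isozyme, had 8.50 and 8.57 after BRPF3 siRNA and 8.80 and 8.78 after control siRNA. These arrays did not overlap, yet the difference of -0.25 ± 0.08 did not pass (adjusted p = 0.0809). It passed with an intensity trend in eBayes (adjusted p = 0.0255) and with a filter at the 75th percentile (adjusted p = 0.0295). HKDC1, a hexokinase domain protein, differed by 0.30 ± 0.13 (adjusted p = 0.172).

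GPI, which converts glucose phosphate to fructose phosphate, differed by 0.05 ± 0.08, with 11.43 and 11.35 after BRPF3 siRNA and 11.35 and 11.34 after control siRNA. TPI1, which interconverts the triose phosphates, differed by -0.26 ± 0.11. GAPDH, the dehydrogenase of glyceraldehyde phosphate, differed by -0.18 ± 0.08 and PGK1, the following kinase, by -0.16 ± 0.08. PGAM2, the muscle mutase, had 5.42 and 5.39 after BRPF3 siRNA and 5.62 and 5.31 after control siRNA, with overlapping groups and a difference of -0.06 ± 0.12. None of these 5 passed, with adjusted p-values of 0.158 to 0.747 in limma. TIGAR, a phosphatase that drains the activator of phosphofructokinase, differed by -0.28 ± 0.09 (adjusted p = 0.0895), and passed with the intensity trend (adjusted p = 0.0295) and with the filter at the 75th percentile (adjusted p = 0.0354).

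Beside LDHA, the lactate dehydrogenase subunits LDHB and LDHC were tested. LDHB, the subunit typical of heart, had 9.91 on both BRPF3 siRNA arrays and 10.00 and 10.18 on the control arrays, a difference of -0.18 ± 0.09 that did not pass (adjusted p = 0.230). LDHC, the testis subunit, rose, with 5.60 and 5.51 after BRPF3 siRNA and 4.75 and 4.93 after control siRNA (difference 0.71 ± 0.10, limma adjusted p = 0.0145). LDHC was a dim gene whose control mean of 4.84 lay close to the brightness limit of 4.59. Its call ended without moderation and without either control array, as did those of the 5 genes. It held without the brightness filter (limma adjusted p = 0.0468). Of 9 named male germ cell markers, LDHC and PRM2 (-0.03 ± 0.08) were tested and 7 were under the limit, and the mean log2 value of the list was 3.92 and 3.90 after BRPF3 siRNA and 3.83 and 3.95 after control siRNA.

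**Figure D2:**
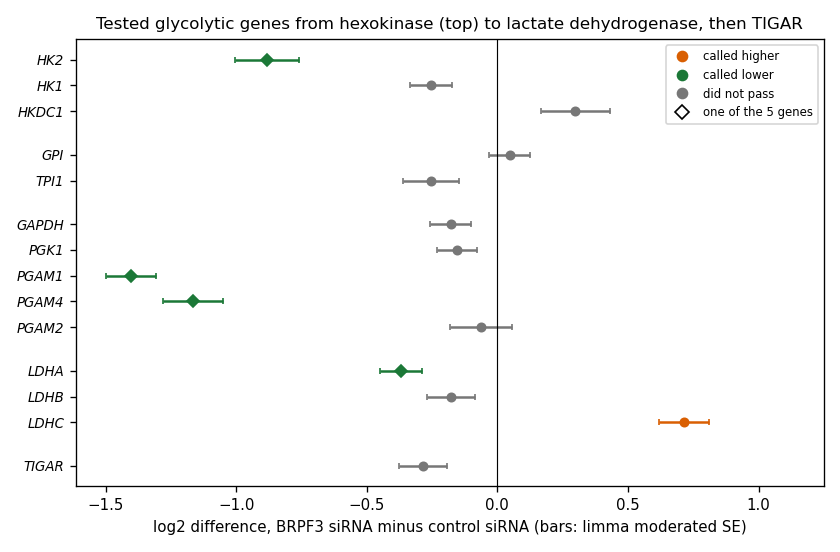
Log2 differences, BRPF3 siRNA minus control siRNA (horizontal axis, bars are limma's moderated SE), of the 14 tested glycolytic genes and regulators from the hexokinase step at the top to the lactate dehydrogenases, with TIGAR last. Diamonds mark HK2, PGAM1, PGAM4 and LDHA, all called lower (green), LDHC at 0.71 is the 1 gene called higher (orange), and the other 9 (grey) lie between -0.28 and 0.30.

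Genes around the pathway were read from lists that were drawn up with earlier results known. In 15 such lists without the 5 genes, 116 genes were tested, of which 11 rose and 15 fell, 22.4% together, against 15.8% over all genes. Their median difference was -0.02, against -0.03 over all genes. Of the 26 calls 19 ended without the brightness filter. The calls over all tested genes fell there from 1686 of 10696 to 409 of 14884. Calls of list genes were also lost with 1 array left out, as they were over all genes.

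Of 3 tested genes of glucose and lactate transport, 0 rose and 1 fell. TXNIP, an arrestin that removes glucose transporters from the cell surface, fell by 0.69 ± 0.13, with 4.99 and 5.33 after BRPF3 siRNA and 5.79 and 5.91 after control siRNA. A second TXNIP probe set, under the brightness limit, differed by 0.50 in the other direction. EMB (-0.35 ± 0.11) and BSG (0.10 ± 0.08), partners of lactate transporters, did not pass. Glucose and lactate transporters themselves were not analysed here.

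Where pyruvate enters mitochondria, 1 of 10 tested genes rose and 2 fell. DLAT (-0.43 ± 0.08) and DLD (-0.34 ± 0.08), subunits of the pyruvate dehydrogenase complex, fell, while the subunits PDHB (-0.25 ± 0.08) and PDHA1 (-0.13 ± 0.08) did not pass. PCK2, the mitochondrial phosphoenolpyruvate carboxykinase, rose by 0.41 ± 0.08, with 7.49 and 7.47 after BRPF3 siRNA and 7.04 and 7.10 after control siRNA. In the tricarboxylic acid cycle 0 of 6 tested genes rose and 2 fell, IDH3A (-0.40 ± 0.09) and IDH3B (-0.34 ± 0.08), subunits of the NAD-dependent isocitrate dehydrogenase. The median of the 6 was -0.20. The calls of DLD and IDH3B ended after quantile and after cyclic loess normalization, and with a replicate block (adjusted p = 0.0577 and 0.0516).

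Of 10 tested genes of the pentose phosphate pathway 0 rose and 2 fell. RPIA, the isomerase that makes ribose phosphate, fell by 1.16 ± 0.11, the same size to 2 decimals as PGAM4, with 7.56 and 7.84 after BRPF3 siRNA and 8.87 and 8.86 after control siRNA. RPE, the matching epimerase, fell by 0.39 ± 0.09, a call that ended after quantile normalization and with a replicate block (adjusted p = 0.0596). Among the rest, PGD (-0.25 ± 0.08, adjusted p = 0.0770) and PRPS1 (-0.23 ± 0.12) were lowest and PGM1 (0.21 ± 0.08) and TALDO1 (0.20 ± 0.10) highest by moderated t, and none of them passed. In the branches to glycogen, glycerol phosphate and serine 1 of 9 rose and 2 fell. The glycerol phosphate dehydrogenase GPD2 of mitochondria (-0.65 ± 0.09) and the related GPD1L (-0.38 ± 0.08) fell, and PSAT1 of serine synthesis rose (0.40 ± 0.08).

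BNIP3 was compared with its relatives and with other receptors that tie mitochondria to autophagy. Without BNIP3 itself 12 were tested, of which 1 rose and 2 fell. BNIP3L (NIX), the closest relative of BNIP3 and likewise a mitophagy receptor, differed by 0.09 ± 0.08 (adjusted p = 0.440). BNIP1 (-0.44 ± 0.09), a SNARE of the endoplasmic reticulum, and BNIP2 (-0.37 ± 0.09) fell. They were named, like BNIP3, for binding a viral homologue of BCL2. A second BNIP2 probe set differed by 0.05 ± 0.09, and the BNIP2 call ended with the mean of both probe sets (-0.16, adjusted p = 0.227), with a replicate block (adjusted p = 0.0549) and with an intensity trend (adjusted p = 0.0508). SQSTM1, the autophagy receptor p62, rose by 0.56 ± 0.08, and OPTN, a receptor of the PINK1 route, differed by 0.36 ± 0.10 without passing (adjusted p = 0.0651).

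Among 13 tested binding partners of BNIP3 2 rose and 3 fell. The antiapoptotic BCL2 rose, with 6.60 and 6.66 after BRPF3 siRNA and 5.91 and 6.12 after control siRNA (0.62 ± 0.10), whereas its relative BCL2L1 fell, with 9.38 and 9.45 after BRPF3 siRNA and 9.73 and 9.88 after control siRNA (-0.39 ± 0.09). GABARAPL1, an ATG8 protein that LC3-interacting receptors bind, rose by 0.84 ± 0.13. MAP1LC3B2 fell by 0.58 ± 0.08, while MAP1LC3B, of which it is a near-identical copy, differed by 0.22 ± 0.08 without passing, and the share of each in these values is uncertain. OPA1, a fusion protein of the inner mitochondrial membrane, fell by 0.37 ± 0.08. The calls of BCL2L1 and OPA1 ended after quantile and after cyclic loess normalization.

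**Figure D3:**
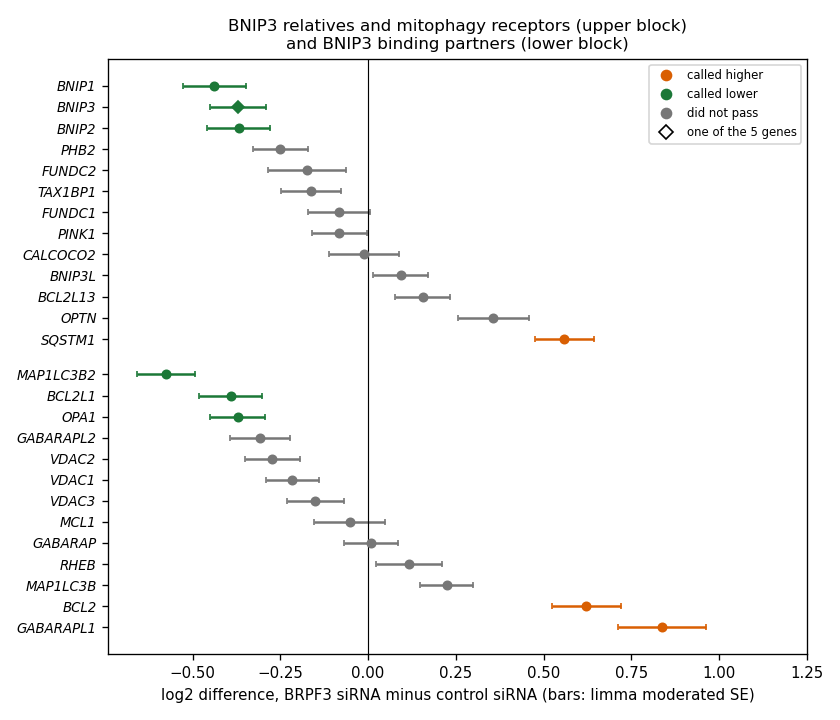
Log2 differences, BRPF3 siRNA minus control siRNA (horizontal axis, bars are limma's moderated SE), of 13 tested BNIP3 relatives and mitophagy receptors (upper block) and 13 tested binding partners (lower block), each sorted by size. BNIP3 (diamond, -0.37) lies beside BNIP1 and BNIP2 among the genes called lower (green), BNIP3L lies at 0.09 (grey), and SQSTM1, BCL2 and GABARAPL1 were called higher (orange).

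Among 7 tested genes of HIF and its regulators 1 rose and 0 fell, 14.3% together. HIF1A and VHL were not analysed here. EPAS1, the HIF2 alpha subunit, rose by 0.70 ± 0.08, with 7.49 and 7.44 after BRPF3 siRNA and 6.74 and 6.81 after control siRNA. The partner subunit ARNT differed by 0.05 ± 0.08 and the prolyl hydroxylase EGLN1 by -0.13 ± 0.08. Among 25 tested HIF targets outside glycolysis 3 rose and 1 fell, 16.0% together, close to the 15.8% of all genes, and their median was 0.06. HMOX1 (1.58 ± 0.08), LOX (0.71 ± 0.10) and VLDLR (0.67 ± 0.12) rose, and INSIG2, which retains sterol sensors in the endoplasmic reticulum, fell by 0.52 ± 0.10. VEGFA, the angiogenic factor, differed by 0.22 ± 0.08, NDRG1 by 0.26 ± 0.10, ADM by -0.34 ± 0.14 and KDM3A by -0.26 ± 0.08, and none of these 4 passed. STC2 (0.45 ± 0.12), JMJD6 (-0.47 ± 0.14) and DDIT4 (0.53 ± 0.26) differed by more and did not pass either. Their limma adjusted p-values were 0.0544, 0.0688 and 0.208.

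Of 13 tested other regulators of glycolytic genes 1 rose and 0 fell. MTOR, the growth kinase, rose by 0.47 ± 0.08, with 9.18 on both BRPF3 siRNA arrays and 8.68 and 8.74 on the control arrays. MYC differed by 0.09 ± 0.09 (adjusted p = 0.520) and its partner MAX by -0.12 ± 0.08. ARRDC4, an arrestin induced with TXNIP by glucose, differed by -0.60 ± 0.16 without passing (adjusted p = 0.0580).

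**Figure D4:**
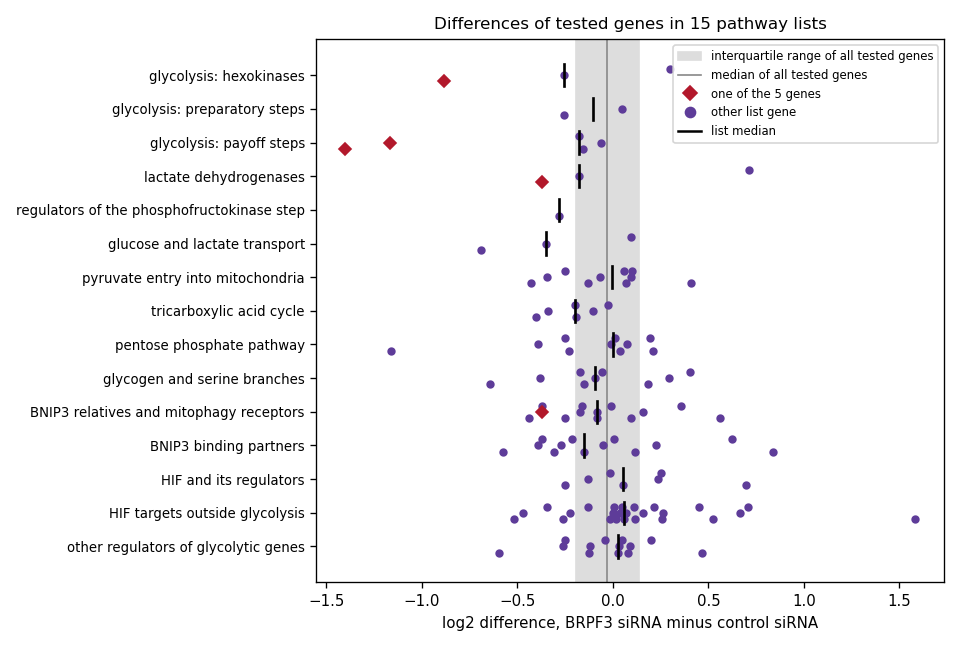
Log2 differences, BRPF3 siRNA minus control siRNA (horizontal axis), of every tested gene in 15 lists around glycolysis and BNIP3 (rows), with list medians as black bars and the interquartile range of all 10696 tested genes in grey. The red diamonds are HK2, PGAM1, PGAM4, LDHA and BNIP3, RPIA stands at -1.16 in the pentose phosphate row, and HMOX1 stands at 1.58 among the HIF targets.

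With 1 array left out, PGAM1 ran from -1.49 to -1.32, PGAM4 from -1.28 to -1.05, HK2 from -1.03 to -0.74, LDHA from -0.40 to -0.34 and BNIP3 from -0.40 to -0.34. After quantile and after cyclic loess normalization BNIP3 was at -0.31. Since the groups of the chosen genes do not overlap, leaving out an array could not turn a direction.

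**Figure D5:**
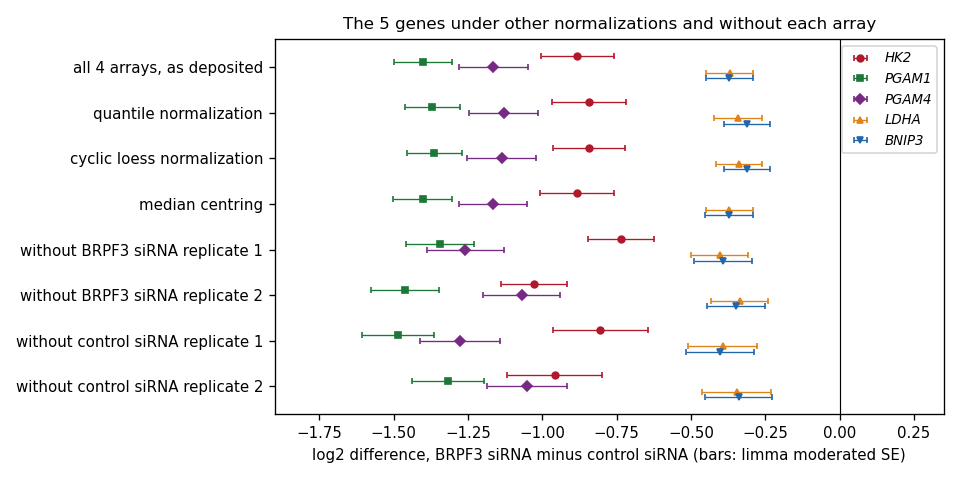
Log2 differences, BRPF3 siRNA minus control siRNA (horizontal axis, bars are limma's moderated SE), of the 5 genes under each of 8 settings (rows). PGAM1, PGAM4 and HK2 lie at or below -0.74 in every row shown, and LDHA and BNIP3 between -0.40 and -0.31.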

How the data were processed

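Total RNA (250 ng per sample) was labelled with the GeneChip WT PLUS chemistry and hybridised to Affymetrix arrays, per the labels' protocols. The authors deposited log2 values for 53617 probe sets, made with RMA per the submitters' processing notes, and the settings used are not stated here. No further normalization was applied. The annotation gave 1 symbol to 16098 probe sets, several to 0 and none to 37519, and RefSeq changed 0 symbols. The probe set with the highest mean stood for a gene, and genes under the median of all probe set means, 4.59, were left out.

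Groups came from sample titles. limma 3.58.1 in R 4.3.3 (lmFit, eBayes, two-sided) used group alone, with 2 residual and 3.81 prior degrees of freedom. The procedure was checked on simulated data. It recovered 43% of 100 genes changed by a factor of 1.5 and 92% of 100 changed by a factor of 2. At each size there were 10 false calls. With 2 arrays against 2 an exact permutation test cannot reach the threshold. Members and lists were chosen with earlier results of these data known. Genes were named by rule: the 5 genes, all tested glycolytic genes, called list genes, HIF1A, EPAS1, ARNT and MYC, and the 2 nearest profiles of each member. Other list genes that did not pass were named after their values were seen. Alternatives were other normalizations, filters, variance settings, a replicate block and leaving out each array. No protein sequences were used here.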

Additional observations from a re-analysis of the deposited data

How the results depend on the processing

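In all 15 alternative settings were run. The number of changed genes, 1686 (676 higher, 1010 lower), moved to 2645 (1036 and 1609) with an intensity trend, to 409 (185 and 224) without the brightness filter, where more and dimmer genes were tested, to 2877 (1224 and 1653) at an adjusted p under 0.1 and to 1 (1 and 0) without moderation. With 1 array left out it ran from 0 to 791 (0 to 310 higher, 0 to 481 lower), and the lone array of a group is then assumed to vary like the other group. Of the 5 genes, 5 were called lower on all arrays, 3 without the brightness filter, 0 without moderation and 0 to 3 with 1 array left out. Of the 10 other glycolytic genes 0 were called lower, but 2 (HK1 and TIGAR) with the intensity trend, 2 with the filter at the 75th percentile and 2 at an adjusted p under 0.1. The 1 called higher, LDHC, became 0 without moderation and 0 with the filter at the 75th percentile, where it was not tested, and ran from 0 to 1 with 1 array left out. BNIP3, at -0.37, moved to -0.31 after quantile and to -0.31 after cyclic loess normalization. None of the 5 genes reversed the sign of its difference in these settings, which is no test of the direction. The replicate block, the variance settings, the filters and the mean of all probe sets left these differences unchanged. Leaving out an array could not turn them, and the genes were chosen for this difference. Where a call changed and the setting does not itself explain it, the cause was not tested.

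With the replicate number as a block 1604 genes changed, and 5 of the 5 genes and 22 of the 26 called list genes kept their calls. The deviations of same-numbered arrays from their group means correlated at 0.14 over 10696 genes. The labels speak of a biological replicate set without saying what same-numbered arrays share, so whether the numbers pair the arrays is not settled.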

Other observations

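Several list genes carried more than 1 probe set, and their probe sets did not always point the same way. AKT1, a kinase that promotes glucose uptake, had a probe set at -0.33 ± 0.10 beside the one used, at 0.08 ± 0.11, and neither passed limma's test over all probe sets (adjusted p = 0.0753 and 0.646). The BNIP2 probe sets lay at -0.37 ± 0.09 and 0.05 ± 0.09, the TXNIP probe sets at -0.69 and, under the brightness limit, 0.50. MXI1, an antagonist of MYC, had 0.07 ± 0.12 and 0.15 ± 0.25. HK2, PGAM1, PGAM4, LDHA and BNIP3 had 1 probe set each, so no such comparison could be made for them.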
